A study of Mus musculus with 30 samples.

Results

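Open chromatin was examined at 8 genes of energy and nitrogen metabolism that are known in other tissues as targets of glucocorticoids: Pdk4, Pdk2, Cpt1a, Angptl4, Gpd1, Glul, Cebpb and Cebpd. A peak region belonged to a gene if it overlapped the RefSeq gene body (GRCm38) or the 10 kb on either side of it. By this rule 38 of the 257149 peak regions in the count table belonged to the 8 genes, and all 38 could be tested. Glul and Cebpb had 8 peaks each, Cpt1a 6, Pdk2 5, Cebpd 4, Angptl4 and Gpd1 3 each, and Pdk4 had 1.

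The libraries were ATAC-seq, in which a transposase inserts into accessible DNA, made from ventral hippocampus nuclei of 30 mice. The 4 groups were formed by history and by acute restraint. Handled mice, which were lifted by the tail each day, gave 8 libraries from the home cage (0 min) and 7 taken 45 min after restraint in a tube began. Mice restrained daily for 10 days gave 8 libraries at 0 min and 7 at 45 min. All mice were housed singly for 24 h before the final day, each group held females and males, and each of the 4 batches held all 4 groups; strain and age were not given in the sources used here. Total counts in peaks ran from 26104576 to 55294838 per library, and the median peak held a mean of 58.97 counts.

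Glucocorticoids are released during stress and act through the glucocorticoid receptor, a transcription factor that binds DNA and can open or close chromatin around its sites. In liver, muscle and fat they shift fuel use away from glucose. They raise the kinases that switch off pyruvate dehydrogenase, the lipid handling genes and the C/EBP transcription factors that act with the receptor. In brain, Glul is best known from astrocytes and Gpd1 from oligodendrocytes, and both are familiar hormone-responsive genes of glia.

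The promoters of the genes are shown first because the peaks at the gene starts carried most of the counts at several loci. RefSeq promoter sequences (GRCm38.p6) were matched for 5 of the 8 genes, Pdk4, Pdk2, Cpt1a, Glul and Cebpb. Each printed sequence is the 250 bases before the annotated start, and each lay entirely inside a peak. Capitals mark every CCAAT box (CCAAT, or ATTGG on the other strand), GC box (GGGCGG or CCGCCC) and cAMP response half-site (TGACG or CGTCA).
Pdk4, chr6:5496279-5496528, minus strand: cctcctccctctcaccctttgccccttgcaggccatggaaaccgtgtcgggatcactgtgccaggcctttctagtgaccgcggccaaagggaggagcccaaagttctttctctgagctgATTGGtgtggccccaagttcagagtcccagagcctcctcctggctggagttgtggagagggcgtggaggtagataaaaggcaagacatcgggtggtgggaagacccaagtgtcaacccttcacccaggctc
Pdk2, first of 2 starts, chr11:95041372-95041621, minus strand: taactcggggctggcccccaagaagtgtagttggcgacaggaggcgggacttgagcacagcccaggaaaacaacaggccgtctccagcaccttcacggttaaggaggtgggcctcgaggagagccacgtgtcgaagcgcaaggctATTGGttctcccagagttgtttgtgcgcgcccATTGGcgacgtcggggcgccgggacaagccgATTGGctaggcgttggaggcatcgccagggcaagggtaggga
Glul, chr1:153899679-153899928, plus strand: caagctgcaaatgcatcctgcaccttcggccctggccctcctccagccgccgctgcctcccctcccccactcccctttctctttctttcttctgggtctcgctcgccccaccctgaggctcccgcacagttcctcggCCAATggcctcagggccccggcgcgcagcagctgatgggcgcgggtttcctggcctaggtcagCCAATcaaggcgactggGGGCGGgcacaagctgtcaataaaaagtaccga
Cebpb, chr2:167688665-167688914, plus strand: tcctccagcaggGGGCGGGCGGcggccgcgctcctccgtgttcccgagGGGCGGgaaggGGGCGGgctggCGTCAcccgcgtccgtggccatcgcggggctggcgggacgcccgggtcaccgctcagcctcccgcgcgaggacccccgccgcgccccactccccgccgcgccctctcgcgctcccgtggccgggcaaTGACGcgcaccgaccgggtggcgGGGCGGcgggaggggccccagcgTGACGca

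The kinase genes and Glul had CCAAT boxes before the printed start, and Cebpb had none. Pdk2 held 3 CCAAT boxes, whose first bases lay at -105, -73 and -42 from the start, and Glul held 2, at -113 and -50, with 1 GC box at -33. The second Pdk2 start, not printed, held none of the motifs searched. Pdk4 held 1 CCAAT box, at -131, and Cpt1a, not printed, held 1, at -19, with 2 GC boxes. Cebpb held no CCAAT box but 5 GC boxes, of which 2 overlapped each other, and 3 cAMP response half-sites, and its GC content was 81.6%. The GC content of the other printed promoters was 58.8% (Pdk4), 62.4% (first Pdk2 start) and 64.8% (Glul). In those not printed it was 58.8% (second Pdk2 start) and 59.6% (Cpt1a). The median was 52.4% over 32851 promoters of the same length. Of those promoters 33.8% held a CCAAT box, 32.7% a GC box and 17.8% a half-site. The full glucocorticoid response element (GNACA and TGTNC set 3 bases apart, found in 0.387% of promoters), its half-site (AGAACA, 16.1%) a C/EBP site (TTGCNNAA, 9.56%), a forkhead site (TGTTTAC, 3.17%) and a PPAR site (AGGTCA and AGGTCA with 1 base between, 0.0335%) were searched on both strands and were in none of the 5 matched promoters. That says only that these letters are not in these windows.

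Accessibility of a whole locus was taken as the count summed over all peaks of the gene, given as CPM, that is relative to the scaled library total over all loci. Peaks were also tested singly. Acute restraint was tested as 45 min minus 0 min, averaged over both histories (14 and 16 libraries), with edgeR's quasi-likelihood test, sex and batch in the model and Benjamini-Hochberg adjustment over all loci or all peaks. The threshold was an adjusted p of 0.05. Of the 8 loci, 1 rose, Gpd1, and none fell, while 1.17% of all 17633 loci tested passed and 0.72% rose. The median change of the 8 was a log2 of 0.047, against -0.00036 over all loci, and 7 of the 8 changes were positive, against 49.6% of all loci. The genes were chosen with earlier results of these data known, so this comparison is a description and carries no test. None of the 38 peaks passed, where 0.116% of all peaks did. By DESeq2 the count of passing peaks among the 38 was also 0, while 434 peaks passed in all.

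**Figure D1:**
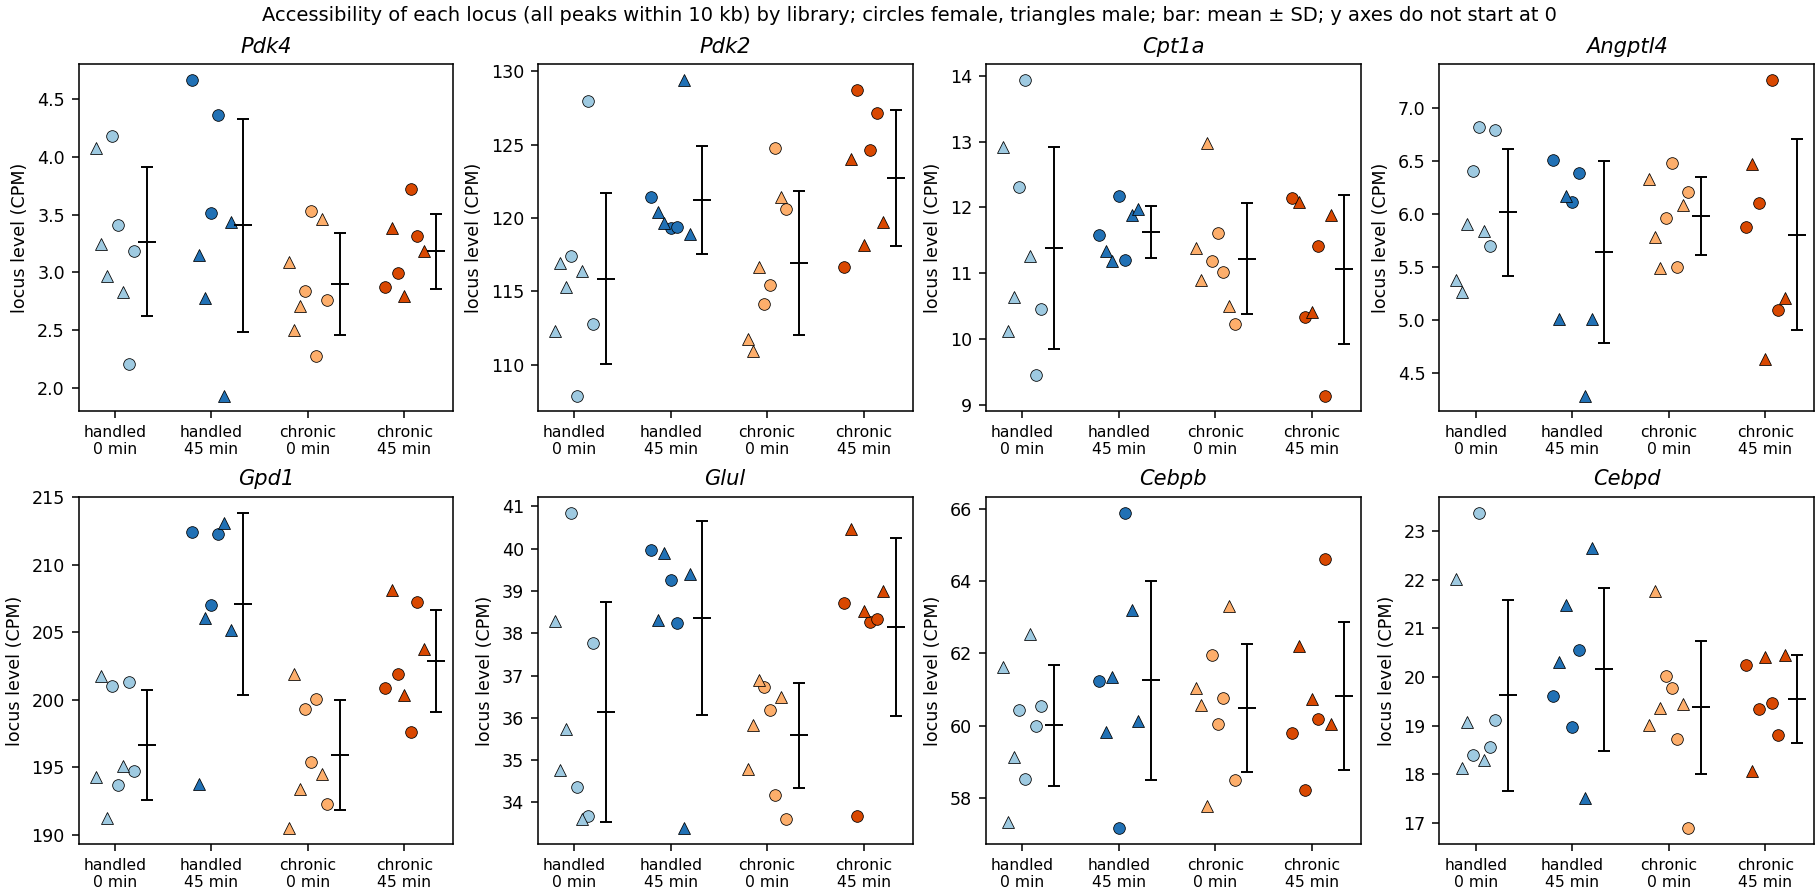
Accessibility of the 8 loci in each library, in CPM of the scaled total over all loci, by group (circles female, triangles male, bar mean ± SD; the y axes do not start at 0). For Gpd1, 9 of the 14 libraries at 45 min lie above every library at 0 min, and for the other genes the groups overlap more.

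Pdk4 and Pdk2 encode pyruvate dehydrogenase kinases, which phosphorylate and shut the enzyme complex that feeds pyruvate into the citric acid cycle. Pdk2 is a widely expressed form and Pdk4 a form raised by fasting. The Pdk2 locus stood at 107.9, 115.9 and 127.9 CPM (lowest, median and highest) in handled mice at 0 min and at 118.9, 119.7 and 129.4 at 45 min. In chronically restrained mice it stood at 110.9, 116 and 124.7 at 0 min and at 116.7, 124 and 128.7 at 45 min. All 14 libraries at 45 min lay above the median of the 0 min libraries, but the ranges overlapped in both histories. The averaged change was a log2 of 0.0617 ± 0.017 (SE), with a 95% interval of 0.027 to 0.097 and an adjusted p of 0.0681, which missed the threshold. By DESeq2 the adjusted p was 0.0398. Within batches 1 to 4 the change was 0.087, 0.085, 0.015 and 0.06.

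Among the 5 Pdk2 peaks, all had positive changes, from 0.0399 to 0.133. The smallest p of any of the 38 peaks belonged to the peak at chr11:95020637-95031452, which runs over the end of Pdk2 far from its start and into the neighbouring Samd14. In handled mice it stood at 46.64, 48.86 and 55.91 CPM at 0 min and at 50.7, 53.36 and 55.23 at 45 min (lowest, median and highest, here relative to the scaled total over peaks). In chronically restrained mice it stood at 48.47, 50.18 and 56 at 0 min and at 50.93, 56.21 and 59.52 at 45 min. The groups overlapped, and the change was 0.101 ± 0.035 (unadjusted p = 0.00491, adjusted p = 0.375 by edgeR). The peak over the Pdk2 start, chr11:95031638-95047743, which contains the printed promoter and also overlaps Itga3, held 58.4% of the locus counts and changed by 0.0399 ± 0.034. The Pdk2 locus shares its peaks with Ppp1r9b, Samd14 and Itga3, whose windows overlap them.

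Pdk4 had a single peak, chr6:5495943-5496865, over its start. Per kilobase the peak at the Pdk4 start, 923 bp wide, held 5 CPM per kb, and that at the Pdk2 start 6.25. The Pdk2 peak is 16106 bp wide and also overlaps Itga3, so these averages do not compare the 2 starts themselves. The Pdk4 locus stood at 2.211, 3.217 and 4.179 CPM in handled mice at 0 min, at 1.932, 3.436 and 4.666 at 45 min, at 2.279, 2.8 and 3.534 in chronically restrained mice at 0 min and at 2.792, 3.187 and 3.721 at 45 min. The groups overlapped throughout. Its change was 0.109 ± 0.094, the largest of the 8 loci, but with the widest interval, -0.082 to 0.3 (adjusted p = 0.678). The SD between libraries of a group was 0.28 on the log2 scale for Pdk4, against 0.11 from counting alone and 0.033 at the Gpd1 locus. A rise of the size of the Gpd1 change was thus not detectable at Pdk4 at this depth and spread.

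Cpt1a encodes the liver form of carnitine palmitoyltransferase 1, the gate for entry of long-chain fatty acids into mitochondria, and Angptl4 encodes a secreted inhibitor of lipoprotein lipase. Neither locus passed. Cpt1a ranged from 9.143 to 13.94 CPM over the 30 libraries, with a change of 0.0132 ± 0.045 (interval -0.079 to 0.11). Its 6 peaks had a median change of -0.0086, and the peak over its start, chr19:3323050-3324198, changed by 0.0236 ± 0.068. Of its counts, 51.4% came from a peak that lies 2845 bp outside the gene and overlaps Tesmin.

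Angptl4 was the only locus of the 8 with a negative acute change. It stood at 5.266, 5.873 and 6.821 CPM in handled mice at 0 min and at 4.285, 6.111 and 6.507 at 45 min. In chronically restrained mice it stood at 5.493, 6.021 and 6.482 at 0 min and at 4.634, 5.878 and 7.262 at 45 min. The 2 times overlapped in both histories, and the change was -0.0638 ± 0.053 (interval -0.17 to 0.044, adjusted p = 0.662). Of its 3 peaks, the one at a gene end, chr17:33780957-33781850, changed by -0.0956 ± 0.076.

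Gpd1 encodes the cytosolic glycerol-3-phosphate dehydrogenase, which links glycolysis to glycerolipid synthesis and to the shuttle of reducing equivalents. The locus stood at 191.2, 194.9 and 201.7 CPM in handled mice at 0 min and at 193.8, 207.1 and 213.1 at 45 min. In chronically restrained mice it stood at 190.5, 194.9 and 201.9 at 0 min and at 197.6, 201.9 and 208.1 at 45 min. In handled mice 6 of 7 libraries at 45 min were above every library at 0 min, and in chronically restrained mice the 2 times overlapped over a few CPM. The locus rose by a log2 of 0.0613 ± 0.013, or 4.34% (interval 0.034 to 0.088, adjusted p = 0.0102 by edgeR). The SD between libraries was 0.033, against 0.014 from counting alone.

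The Gpd1 rise cannot be assigned to Gpd1 itself. Of the locus counts 96.8% came from a single region of 39712 bp, chr15:99690495-99730206, which covers Asic1, Smarcd1, Gpd1 and Cox14, where the median peak of the table was 561 bp wide. The loci of Asic1, Smarcd1, Cox14 and Cers5, which share its peaks, rose as well, by 0.0496 to 0.0609. Without this region, a choice made after seeing the data, the rest of the Gpd1 locus changed by 0.0797 ± 0.053 (adjusted p = 0.568).

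The call depended on scaling and on batch. It was kept with total count scaling (adjusted p = 0.0168) and with RLE scaling (0.00977). Tested as a single peak, the wide region changed by a similar 0.0617 ± 0.030 with an unadjusted p of 0.0404 and an adjusted p of 0.666. When the loci were scaled by the totals and factors of the peak table, also chosen after seeing the data, Gpd1 changed by 0.0621 ± 0.023 with an adjusted p of 0.334. The ratio of the 2 scaled totals was 1.69 in animal 45, which was female, handled and taken at 0 min, and 1.39 to 1.51 in the other 29. The call was kept without that animal and without any other single library (adjusted p from 0.00264 to 0.0257). It was lost without batch 2 (adjusted p = 0.277) and without batch 3 (0.143), in females alone (0.653) and in males alone (0.213). The log2 change in those 4 subsets was 0.0549 to 0.0659, and within batches 1 to 4 it was 0.038, 0.069, 0.081 and 0.056.

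Glul encodes glutamine synthetase, which turns glutamate and ammonia into glutamine and in brain serves the recycling of transmitter glutamate. The locus stood at 33.61, 35.25 and 40.85 CPM in handled mice at 0 min and at 33.39, 39.26 and 39.98 at 45 min. In chronically restrained mice it stood at 33.6, 36.01 and 36.88 at 0 min and at 33.68, 38.52 and 40.47 at 45 min. In both histories all but 1 of the 45 min libraries were above the highest chronically restrained library at 0 min, but handled libraries at 0 min reached as high. The change was 0.0922 ± 0.028 (interval 0.036 to 0.15), and its adjusted p of 0.0927 missed the threshold. By DESeq2 the adjusted p was 0.0494. Within the 4 batches the change was 0.094, 0.028, 0.11 and 0.16.

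Along Glul, 6 of 8 peaks had positive changes, and 3 of the 7 peaks with an unadjusted p below 0.05 were here. The peak over the start, chr1:153897415-153901719, which contains the printed promoter, held 52.2% of the locus counts. Its median in handled mice was 26.18 CPM at 0 min and 29.87 at 45 min, and in chronically restrained mice 26.03 and 28.47, with overlapping ranges. Its change was 0.112 ± 0.044 (unadjusted p = 0.0124, adjusted p = 0.501). A peak inside the gene, chr1:153901838-153902617, changed by 0.244 ± 0.10, and a peak 284 bp beyond the end of the gene, chr1:153910007-153911181, by 0.161 ± 0.071 (adjusted p = 0.547 and 0.612). These peaks are neighbours on 1 locus and are not independent of each other.

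Cebpb and Cebpd encode C/EBP beta and C/EBP delta, bZIP transcription factors that glucocorticoids, cytokines and cAMP induce. Cebpb ranged from 57.15 to 65.9 CPM and Cebpd from 16.89 to 23.38 over the 30 libraries. Cebpb changed by 0.0151 ± 0.018, and its interval, -0.021 to 0.051, ended below the Gpd1 change of 0.0613 under this scaling. Scaled by the peak table the Cebpb change was 0.0153 with a wider SE of 0.024, and the difference between the 2 loci was not tested. Cebpd changed by 0.0332 ± 0.037 (interval -0.042 to 0.11). The wide peak over the Cebpb start, chr2:167679718-167690228, changed by -0.000514 ± 0.035. Cebpd shares its main peak, chr16:15885635-15889364, with Spidr, and that peak changed by 0.0413 ± 0.050.

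The smallest p near Cebpb was at a distal peak; its difference from the promoter peak was not tested. The peak chr2:167697703-167698275, 7271 bp from the gene, stood at 1.094, 1.399 and 1.486 CPM in handled mice at 0 min and at 1.322, 1.606 and 1.916 at 45 min. In chronically restrained mice it stood at 1.004, 1.261 and 1.524 at 0 min and at 1.321, 1.516 and 1.879 at 45 min. The ranges overlapped, and the change of 0.251 ± 0.094, the largest of the 38 peaks, had an unadjusted p of 0.00916 and an adjusted p of 0.456. The peak held a mean of 56.1 counts per library, and its SE was 0.094 against 0.035 for the promoter peak.

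**Figure D2:**
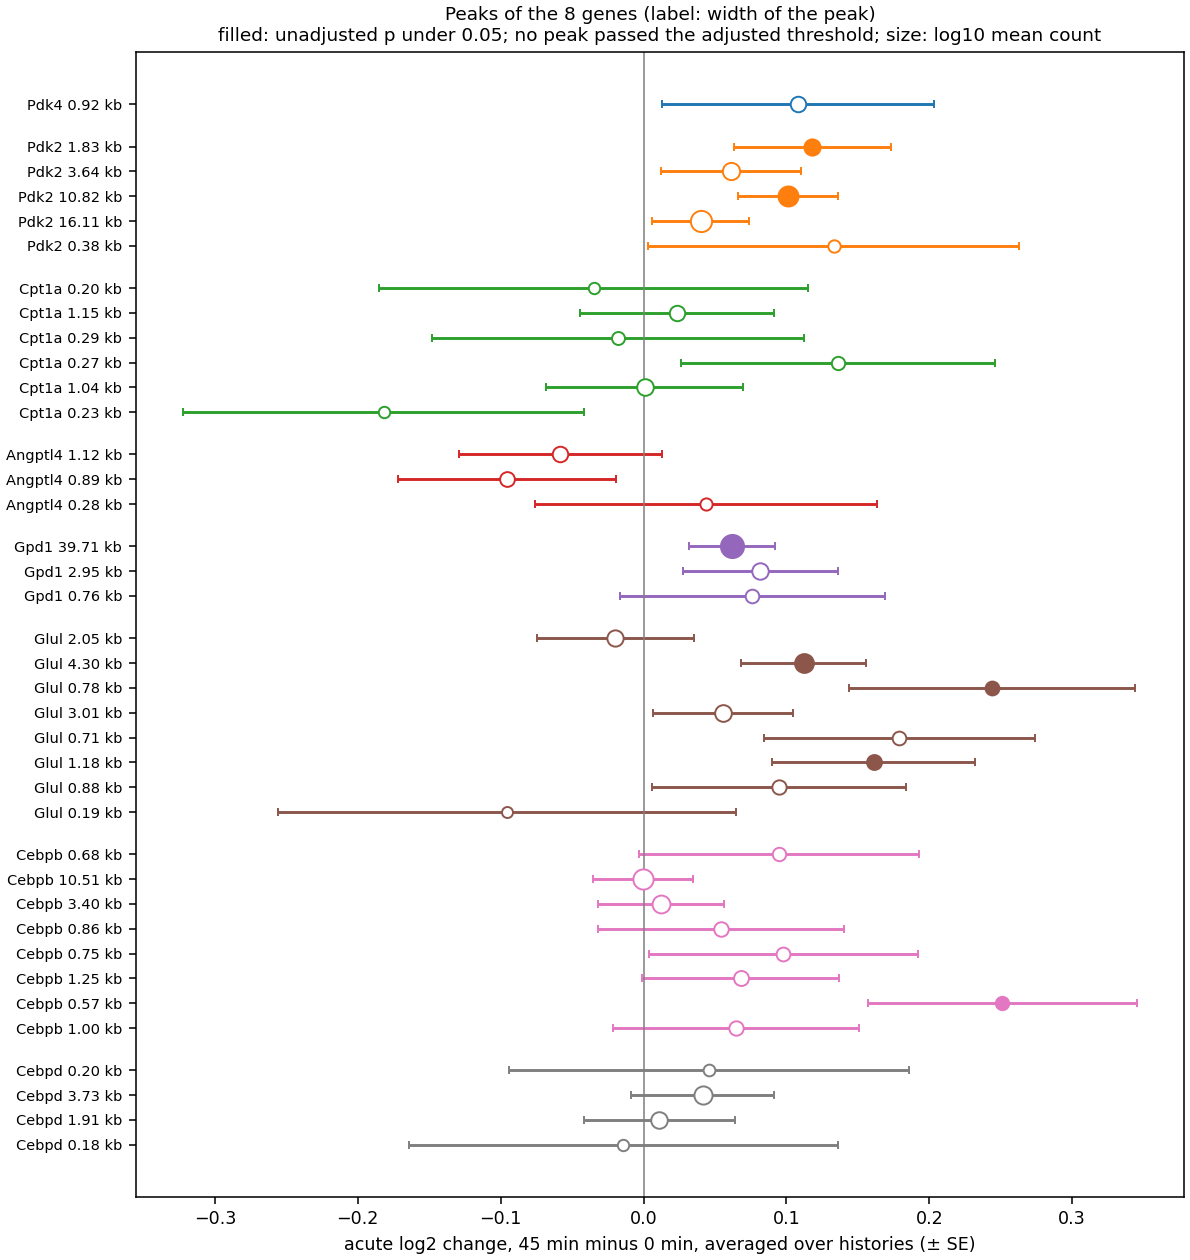
Acute log2 change of each of the 38 peaks, 45 min minus 0 min, averaged over histories, with its SE (x axis); peaks are in genomic order within a gene and labelled by width, and filled points have an unadjusted p under 0.05. All 7 filled points lie right of 0, at Pdk2, Gpd1, Glul and Cebpb, and none passed the adjusted threshold.

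Across the 38 peaks, 29 had a positive change, or 76.3% against 49% of all peaks, and the median was 0.058 against -0.0025. Unadjusted p-values below 0.05 were found for 7 of them, all higher at 45 min, where 7.17% of all peaks had one. Peaks of a gene share animals and neighbouring sequence, and the genes were chosen with earlier results known, so these counts are a description and carry no test.

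Since each batch held both sexes, both histories and both times, 14 pairs of a 45 min and a 0 min library of the same batch, sex and history could be formed, a comparison added after seeing the data. Gpd1 was higher at 45 min in 12 of 14 pairs, 6 of 7 in each history, by a mean log2 of 0.058 ± 0.012 (exact sign-flip test, two-sided, p = 0.000488). Adjusted over all 17633 loci that p was 0.0844, and no locus of the table passed in this test, whose smallest possible p is 0.000122. Pdk2 was higher in 12 of 14 pairs and Glul in 11 of 14 (exact p = 0.012 and 0.00964, adjusted p = 0.253 and 0.23). Of all loci, 2.04% were higher in 12 or more pairs and 12.2% in 10 or more, and 11.2% had an exact p below 0.05. For Pdk4, Cpt1a, Angptl4, Cebpb and Cebpd, 5 to 9 of the 14 pairs were higher, with exact p-values from 0.226 to 0.47.

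**Figure D3:**
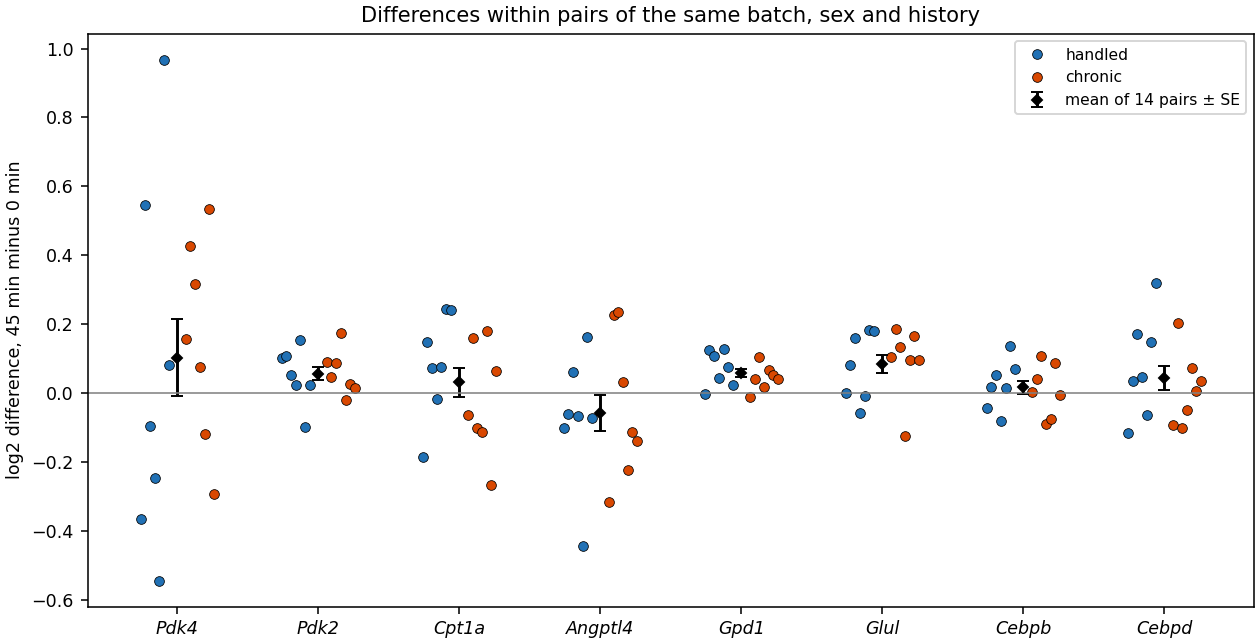
Log2 difference, 45 min minus 0 min, within 14 pairs of libraries of the same batch, sex and history (blue handled, orange chronically restrained; diamond mean ± SE). Gpd1 differences run from -0.011 to 0.13 and those of Pdk4 from -0.54 to 0.97.

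A further question was whether repeated restraint alters the response to a later one. Tested within each history, no locus of the 8 passed in handled mice (0.142% of all loci did) or in chronically restrained mice (0.051%), and no peak of the 38 passed in either (0.0109% and 0.00272% of all peaks). Unadjusted p-values below 0.05 were found for 3 loci in each history, Gpd1, Pdk2 and Glul in both (7.81% of all loci had one in handled and 6.83% in chronically restrained mice); both histories enter the averaged change, so this is no separate evidence. Gpd1 changed by 0.0749 ± 0.019 in handled mice (adjusted p = 0.105) and by 0.0477 ± 0.019 in chronically restrained mice (adjusted p = 0.603). Pdk2 changed by 0.061 ± 0.024 and 0.0624 ± 0.024, and Glul by 0.0854 ± 0.039 and 0.0989 ± 0.039. Among the peaks, 3 had an unadjusted p below 0.05 in handled and 4 in chronically restrained mice, where 5.52% and 4.73% of all peaks had one. By DESeq2, 1 of the 8 loci passed in handled mice, Gpd1, none in chronically restrained mice, and no peak in either. In all, DESeq2 passed 82 loci and 57 peaks in handled mice, against 25 and 28 by edgeR. In chronically restrained mice it passed 29 loci and 24 peaks, against 9 and 7.

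The difference between these responses was tested directly. None of the 8 loci and none of the 38 peaks differed in acute change between histories (0% of all loci and 0% of all peaks passed). No locus or peak of the 8 genes had an unadjusted p below 0.05, where only 1.35% of all loci and 3.03% of all peaks had one. For Gpd1 the difference, chronically restrained minus handled, was -0.0272 ± 0.027, with an interval of -0.081 to 0.026. This interval includes no difference and also includes a loss of the whole response seen in handled mice. For Pdk2 it was 0.00137 (interval -0.068 to 0.071) and for Glul 0.0135 (-0.099 to 0.13).

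Chronic restraint by itself moved none of the 8 loci or 38 peaks past the threshold, at 0 min, at 45 min or averaged over both, and in each of these comparisons 0% of all loci and 0% of all peaks passed. By DESeq2 no locus or peak of the 8 genes passed either, while 21 loci and 1 peak passed in all when averaged over both times. No locus had an unadjusted p below 0.05 in any of the 3, and 1 of the 38 peaks had one averaged over both times and 1 at 0 min. Of all peaks, 5.44% had one averaged over both times, 4.6% at 0 min and 3.78% at 45 min. Of all loci, 10.5%, 5.66% and 4.83% had one, so the 2 peaks are named only as the nearest to the threshold. The smallest unadjusted p among the loci averaged over times was that of Pdk4, at -0.154 ± 0.093 (edgeR, adjusted p = 0.54, interval -0.34 to 0.034). Averaged over both times the peak was Angptl4's distal one, chr17:33783530-33783805, at 0.251 ± 0.12 (adjusted p = 0.912). At 0 min it was chr11:95014939-95016766, 9492 bp outside Pdk2, at 0.152 ± 0.076 (adjusted p = 0.997). The smallest p for the difference of acute changes among the 38 peaks was 0.166, at the peak chr19:3389738-3389969 beyond Cpt1a.

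**Figure D4:**
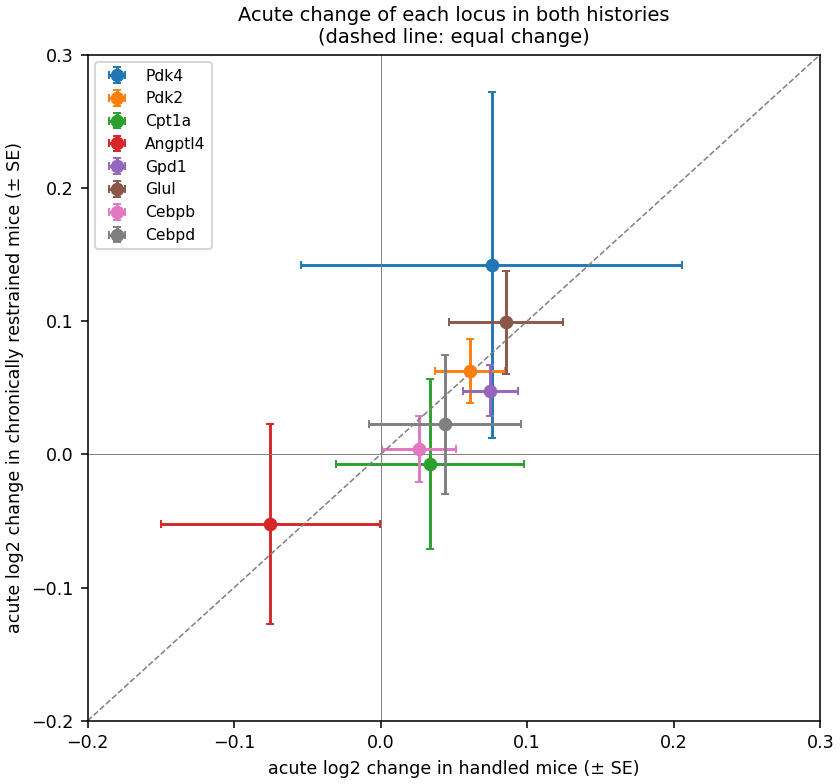
Acute log2 change of each locus in handled mice (x axis) and in chronically restrained mice (y axis), each with its SE; the dashed line marks equal change. Pdk2, Gpd1 and Glul lie above 0 on both axes, and Gpd1 lies below the dashed line (0.0749 handled, 0.0477 chronically restrained).

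Sex was tested in the same model. None of the 8 loci passed for females against males (0.454% of all loci did), and none of the 38 peaks did (0.035%). Unadjusted p-values below 0.05 were found for 1 locus and 4 peaks, where 7.26% of all loci and 5.37% of all peaks had one, and by DESeq2 none passed. Angptl4 came nearest, at 6.213 ± 0.552 CPM in females (SD, n = 15) and 5.523 ± 0.633 in males (n = 15). The female minus male log2 difference was 0.172 ± 0.053 (interval 0.066 to 0.28, adjusted p = 0.221), and it was positive at each of its 3 peaks, at 0.205, 0.153 and 0.356. The ranges of the sexes overlapped, from 5.088 to 7.262 CPM in females and from 4.285 to 6.466 in males. No locus differed between sexes in its acute change (0% of all loci passed, and 0.000389% of all peaks), and none of the 38 peaks did. Unadjusted p-values below 0.05 were found at 0 loci and 1 peak, where 3.96% of all loci and 3.72% of all peaks had one. The smallest p among the loci was that of Pdk4, female minus male 0.329 ± 0.16 (edgeR, adjusted p = 0.995).

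The genes around the 8 in their pathways gave a reference. In all, 7 lists were taken: the pyruvate dehydrogenase gate (14 genes, 158 peaks), the carnitine shuttle and fatty acid oxidation (18 genes, 301 peaks), lipoprotein lipase and lipolysis (12 genes, 11 with a peak, 169 peaks), glycerol phosphate (8 genes, 149 peaks), glutamine and glutamate turnover (12 genes, 11 with a peak, 232 peaks), the C/EBP family and its partners (7 genes, 54 peaks), and other gluconeogenic and insulin signalling targets (14 genes, 192 peaks). In the averaged acute comparison no peak and no locus of any of these lists rose or fell by edgeR. Their median locus changes ran from -0.013 (glutamine turnover) to 0.023 (lipolysis), against 0.047 for the 8 genes. Both the genes and the lists were chosen with earlier results of these data known, and this difference was not tested. In the lists, 6 loci had an unadjusted p below 0.05, where 12.6% of all loci had one, and they are named only as the nearest to the threshold. Pnpla2, the adipose triglyceride lipase, had the smallest, at 0.0428 ± 0.013 (adjusted p = 0.105). Next was Gpihbp1, which anchors lipoprotein lipase to capillaries, at 0.0765 ± 0.030 (adjusted p = 0.232), while Lpl itself stood at -0.0952 ± 0.043 (adjusted p = 0.331). Insig2, a brake on sterol synthesis, stood at -0.0522 ± 0.021 (adjusted p = 0.256), Trib1 at -0.0598 ± 0.028 and G6pc3 at -0.0386 ± 0.017.

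**Figure D5:**
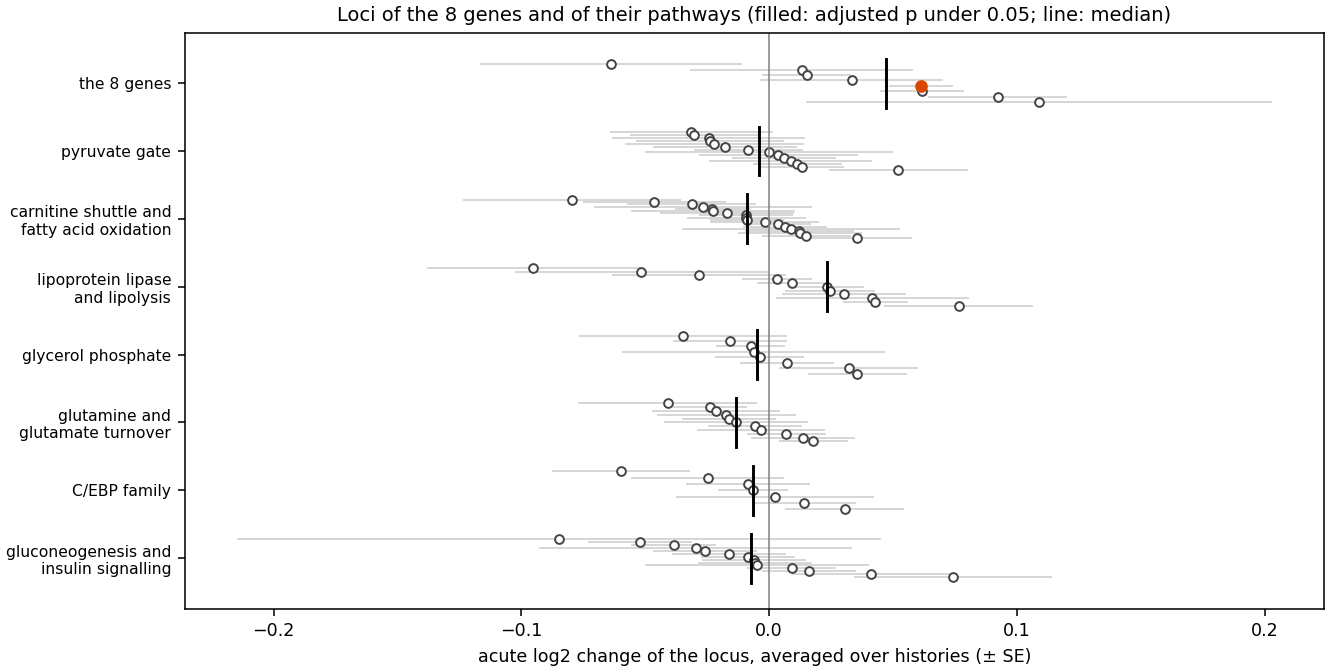
Acute log2 change of the locus, with its SE, for each of the 8 genes and each gene of 7 pathway lists (1 point per gene, black line the list median, filled where the adjusted p was under 0.05). Gpd1 is the only filled point, and the list medians run from -0.013 to 0.023.

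Bulk libraries cannot tell a change in the share of a cell type from a change within its cells, so markers were read beside these values. The summed levels of 8 marker lists overlapped between all 4 groups. Astrocyte markers, beside Glul, ran from 231.8 to 279.9 CPM in handled mice at 0 min, 257.1 to 278.1 at 45 min, 256.8 to 277.9 in chronically restrained mice at 0 min and 256.9 to 282.2 at 45 min. Of the 6 astrocyte loci none rose or fell, and of their 118 peaks 1 fell, at Slc4a4 (-0.615 ± 0.13, adjusted p = 0.00998). Oligodendrocyte markers, beside Gpd1, ran from 360.8 to 408.6 CPM in handled mice at 0 min, 382.8 to 413.3 at 45 min, 370.9 to 394.2 in chronically restrained mice at 0 min and 376.6 to 408.6 at 45 min. Of the 6 oligodendrocyte loci 1 rose, Mobp (0.162 ± 0.022, adjusted p = 2.64e-05), and of their 92 peaks 1 rose, also at Mobp (0.237 ± 0.051, adjusted p = 0.019), while Ermn stood at -0.21 ± 0.075, and the list median was -0.052. The part of either cell type in the Glul and Gpd1 values was not tested. Hippocampal neuron markers Prox1, Fibcd1 and Neurod6 had peaks at a gene end. Among the defining markers, Aqp4, Gja1, Slc4a4, Sst, Vip, Pecam1, Tek, Rgs5, Ttr, Folr1, Clic6 and Otx2 had no peak within 1 kb of a gene end.

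Levels of the 8 loci were also compared across animals. After removal of batch and sex terms, Pearson's r of log2 CPM over the 30 libraries ran from -0.37 (Pdk2 and Cebpd) to 0.63 (Pdk4 and Glul) among the 28 pairs of the 8 loci. Gpd1 had an r of 0.48 with Glul and 0.42 with Pdk2, while Pdk4 and Pdk2, the 2 kinases, had an r of -0.16. These values share libraries, scaling and the group differences, and carry no test.

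Loci on other chromosomes most like each gene over the 30 libraries were listed by the same measure. Nearest to Gpd1 were Arrdc2 (r = 0.85), Hdgfl2 (0.85) and Zbtb16 (0.8), nearest to Pdk2 were Dpysl4 (0.87), Jakmip3 (0.85) and Stk32c (0.85), and nearest to Glul were Mfsd2a (0.75), Sdc4 (0.73) and Htra1 (0.72). Nearest to Pdk4 was Csrp1 (0.72), to Angptl4 Vps26c (0.74), to Cpt1a Rtkn2 (0.81), to Cebpb Dram1 (0.7) and to Cebpd Dennd4c (0.83). The median r over all candidate loci was between -0.046 and 0.023 for every one of the 8.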

How the data were processed

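ATAC-seq counts for 30 libraries were used as the authors deposited them, raw whole-number counts per peak region in one table. Per the submitters' processing notes, Trimmomatic, Bowtie2, Picard, Genrich 0.6.1 and GRCm38 were used; how regions were merged and what was counted (reads, fragments or insertions) is not given in the sources used here. The 2 table columns that matched no sample were not used.

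Peaks were matched to RefSeq genes (GRCm38.p6, no strand or exons) with GenomicRanges 1.54.1 in R 4.3.3. The filter filterByExpr in edgeR 4.0.16 left 257143 of 257149 peaks. For loci, counts were summed over all peaks within 10 kb of each of 17633 of 21900 protein coding genes (a peak can count for several genes). Counts were TMM-scaled and fitted with quasi-likelihood models of group, sex and batch (estimateDisp, glmQLFit robust, glmQLFTest), with Benjamini-Hochberg adjustment over all peaks or loci. Sex differences in the acute change came from 8 cells of group and sex with batch. The SE is the log2 change divided by the square root of F. Per gene, the named peaks are those at the start, of the highest count, of the smallest acute p, called anywhere, or of the smallest p for chronic restraint or the interaction; further peaks were named after their values were seen. The like loci are the 3 with the highest r, on other chromosomes, with a mean count of at least 500. DESeq2 1.42.0, other scalings, filters, covariates, windows of 0 and 25 kb and subsets were tried. The code was tested on simulated data.

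Each library carries its own number in the labels, taken here as an animal, so p-values measure the spread between these samples. The genes and lists were chosen with earlier results of these data known.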

Additional observations from a re-analysis of the deposited data

Results flagged for a closer look

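A library far from the rest of its group was found in 6 of 84 sets of 7 or 8 libraries tested (7.14%, where chance gives about 1 in 20), 4 of them among 32 sets of whole loci. The library of animal 59, a handled male at 45 min, was high at the Pdk2 locus, at 129 CPM where the other 6 of its group stood at 119 to 121. The same library was low at the Glul locus, at 33.4 CPM against 38.2 to 40. Animal 36, a chronically restrained female at 45 min, was also low at the Glul locus, at 33.7 CPM against 38.3 to 40.5. With either of these animals left out, the Glul change passed the threshold (edgeR, adjusted p = 0.0372 without animal 59 and 0.0151 without animal 36). Both were picked here as low values at 45 min, so leaving either out raises the 45 min level and is no support for the change. With each of the 30 libraries left out in turn, Glul passed in 3 cases (edgeR, adjusted p from 0.0151 to 0.199).

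Animal 18, a handled male at 45 min, was low at the Gpd1 locus, at 194 CPM against 205 to 213. Animal 45, the handled female at 0 min whose scaled totals stood apart, was high at the peak over the Pdk2 start, at 122 CPM against 92.2 to 105. It was also high at the main peak beyond Cpt1a, at 12.8 CPM against 6.94 to 9.63. These peaks were not alone. Animal 45 was also the highest of its group at the main peaks of Gpd1 (320.2 CPM), Glul (34.92), Cebpb (67.47) and Cebpd (26.33). By contrast it was the lowest of its group at the peak over the far end of Pdk2 (46.64) and at the whole Pdk2 locus (107.9). The cause was not tested.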

How the results depend on the processing

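The count of the 38 peaks passing for the averaged acute change was 0 in every setting tried except with the share of counts in the top 1% of peaks as a covariate, where it was 1 (the peak over the far end of Pdk2, adjusted p = 0.0352) while 1766 peaks passed in all, against 299. The count of the 8 loci passing, 1, became 3 with that covariate and 3 by DESeq2 (Gpd1, Pdk2 and Glul in both), 2 with a window of 0 kb (Glul added) and 2 with 25 kb (Pdk2 added, adjusted p = 0.0031). It was 0 without batch 2, 0 in females alone, 0 in males alone, 0 in matched pairs and 0 when scaled by the peak table, and without batch 3 the passing locus was Pdk2 (0.0372). Scaled by the peak table, 73 loci passed in all, 65 of them higher, against 207 with 127 higher. Leaving out each library in turn gave 1 to 2. The second was Pdk2 without animal 45, 20, 57, 52, 7 or 66 (adjusted p from 0.0227) and Glul without animal 40, 59 or 36 (from 0.0151). In handled mice alone the 8 loci gave 1 (Gpd1) with the covariate and 1 by DESeq2, and 0 to 1 with a library left out (1 without animal 20 or 18). Over all loci the count in handled mice was 148 with the covariate and 82 by DESeq2, against 25.

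Over all peaks the averaged acute count also moved to 525 by total count scaling (280 higher, against 188 of 299), 40 without batch 2, 20 in females alone, 105 in males alone, 140 without batch 3 and 681 without animal 45. Over all loci it moved to 968 with the covariate, 415 by DESeq2, 95 without batch 1, 21 without batch 2, 125 without batch 3, 16 in females alone, 74 in males alone and 147 to 375 with a library left out.

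Signs turned for changes that had not been called. Within single batches, named peaks at Pdk4 (-0.118 in batch 4), the Pdk2 start (-0.0312 in batch 4), Angptl4 (up to 0.104), Cpt1a (up to 0.27 at its farther distal peak) and Cebpb (up to 0.0633) also had the opposite sign. The Pdk4 locus stood at -0.0391 and its peak at -0.0224 in males alone. The Angptl4 locus stood at 0.00299 and its gene-end peak at 0.0889 in females alone, and its other gene peak at 0.00571 without batch 4. The Cpt1a locus stood at -0.00733 with the covariate, -0.00692 without batch 3 and -0.00195 to 0.0339 with a library left out. Its start peak stood at -0.0333 without batch 1 and -0.00636 without batch 3. Its main distal peak stood at -0.000715 by RLE scaling, -0.0261 without sex and batch terms, -0.0423 with the covariate, -0.000745 by DESeq2, -0.00312, -0.025 and -0.00128 without batches 2, 3 and 4, and -0.0304 in females alone. The Cebpb start peak stood at 0.0127 and 0.0122 without batches 2 and 4, 0.0249 in males alone and 0.012 without animal 45. The cause was not tested. No paired analysis by replicate number was possible because the animal numbers are unique to each library; leaving out each library in turn, planned for the peaks too, is given there for animal 45 alone because of its running time. With a mean count of 16.13 to 11100 per library, depth limits the small peaks most.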
